A study of Mus musculus with 6 samples.

Results

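The AP-1 factors of the Fos-Jun family were followed in haematopoietic stem cells of mice that lack Hlf, hepatic leukaemia factor, and of wild-type littermates. The members were taken by name and are 8 genes of the 23574 in the count files: Fos, Fosb, Fosl1, Fosl2, Jun, Junb, Jund and Atf3. Each matched 1 listed RefSeq transcript, so none of these genes had its reads divided among several listed transcripts. Libraries came from Hlf KO cells (3 libraries) and from WT cells (3 libraries), all on the C57BL/6 background, and each was made from 3000 freshly sorted cells. The sort kept cells without lineage markers that carried Sca-1 and c-Kit and lacked CD34 and Flt3. The labels describe neither the knockout allele nor the age of the mice, and they do not say that each library is a separate animal. The p-values therefore cover the spread between libraries, part of which may be technical. The study set knockout against wild-type cells, and the comparison here asks how the AP-1 genes differed.

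AP-1 is a family of dimeric transcription factors that bind DNA through a basic region and pair through a leucine zipper. Jun proteins pair with each other or with Fos proteins, while Fos proteins need a Jun partner, and Atf3 is a stress-induced relative that also pairs with Jun proteins. Fos, Fosb, Jun, Junb and Atf3 are immediate early genes, transcribed without new protein synthesis after growth factors, cytokines or stress, and their messages are short-lived. In mice, Junb is known to restrain the expansion of blood stem cells and myeloid cells.

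The promoters of the 3 members that stood lower in every KO library, Fos, Fosb and Junb, are shown beside that of Jun, which did not. Each is the 250 bases before the start site in RefSeq's GRCm38.p6 table, 5′ to 3′ on the gene's strand, and capitals mark every match to the motifs searched. RefSeq's table gave a window for 7 members, and Fosl1 is named only.
Fos, chr12:85473640-85473889, plus strand: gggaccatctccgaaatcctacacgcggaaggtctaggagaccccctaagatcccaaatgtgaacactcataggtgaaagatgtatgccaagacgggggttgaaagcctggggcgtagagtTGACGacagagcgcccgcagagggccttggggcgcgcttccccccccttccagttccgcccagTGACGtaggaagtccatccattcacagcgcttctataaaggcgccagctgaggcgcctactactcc
Fosb, chr7:19310046-19310295, minus strand: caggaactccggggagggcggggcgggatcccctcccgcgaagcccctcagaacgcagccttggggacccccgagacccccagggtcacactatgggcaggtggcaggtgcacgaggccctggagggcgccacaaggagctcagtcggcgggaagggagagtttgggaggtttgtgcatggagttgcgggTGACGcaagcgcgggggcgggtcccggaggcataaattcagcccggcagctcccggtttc
Junb, chr8:84978749-84978998, minus strand: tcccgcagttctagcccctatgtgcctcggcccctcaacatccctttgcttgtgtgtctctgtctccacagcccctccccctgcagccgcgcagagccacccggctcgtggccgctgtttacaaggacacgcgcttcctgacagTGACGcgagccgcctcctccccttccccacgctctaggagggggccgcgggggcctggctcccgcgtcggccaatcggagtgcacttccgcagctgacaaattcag
Jun, chr4:95052223-95052472, minus strand: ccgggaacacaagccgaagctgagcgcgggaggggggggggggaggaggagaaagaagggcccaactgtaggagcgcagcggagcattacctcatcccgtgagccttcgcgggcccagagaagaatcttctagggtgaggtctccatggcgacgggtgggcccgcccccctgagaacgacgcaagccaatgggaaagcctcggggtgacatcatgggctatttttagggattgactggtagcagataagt

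The search covered both strands for TGANTCA (the AP-1 site), TGACGTCA (the cyclic AMP response element), TTACGTAA (the site of PAR bZIP factors such as Hlf) and the CArG box of serum response factor. These were held by 6.75%, 1.55%, 0.113% and 1.47% of all 32851 promoter windows of this length, and by 0 of the 7 member windows. Bases outside these windows were not searched. Whether a member, Fos included, has a CArG box or another of these sites farther upstream was not tested. The shorter letters TGACG, the core of a cyclic AMP response element, were added after the sequences were seen, and they lie within TGACGTCA. They occurred in 17.8% of all windows. In Fos they began 129 and 66 bases before the start site, in Fosb 60 and in Junb 106. In Atf3 they lay on the other strand, 7 to 3 bases before the start. The windows of Jun, Jund and Fosl2 held none of these letters. A match describes letters in the window and was not tested as a binding site.

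The libraries differed in depth and in how alike they were. The KO libraries held 10182464 to 11998296 counts and the WT libraries 8346335 to 9902102, so every KO library was the deeper. WT library 1 had counts for 10796 genes, the fewest of the 6. Pearson's r of log2 CPM (counts scaled to a common library size, with TMM factors) across genes was 0.869 to 0.883 between KO libraries and 0.749 to 0.805 between WT libraries, so WT varied more. Hlf stood at 34.4 ± 5.30 CPM in KO and at 1382 ± 274 CPM in WT (SD, n = 3 each), a log2 difference of -5.33 (SE 0.26, edgeR adjusted p = 1.91e-06; two-sided exact permutation p = 0.1, the smallest possible here). Xist was abundant in KO library 3 and in WT library 3. Of 10 stem cell genes 7 were tested, 2 with positive and 5 with negative log2 fold changes, and none but Hlf passed edgeR's test. Some of them separated the genotypes, while Slamf1, Fgd5 and Mllt3 overlapped. Among all tested genes, 6.85% were lower in every KO library and 7.52% were higher. Procr had 31.9, 11.1 and 26.7 CPM in KO, against 40.1, 93.3 and 91.5 CPM in WT, and Mecom had 153, 95.4 and 80.9 CPM in KO, against 168, 195.5 and 221 CPM in WT, so both were lower in every KO library. Ctnnal1 was higher in every KO library, at 30.9, 35.9 and 33.6 CPM, against 16.3, 27.9 and 23.8 CPM in WT. Their part in the AP-1 values was not tested. Ly6a (Sca-1) had 0 counts and Kit 1 count in all, though the sort kept cells that carried Sca-1 and c-Kit. Genes with 2 listed transcripts had a median of 3 counts over all libraries, against 79 with 1. A count of 0 or a low count of a marker, here and below and for Cd34 too, is therefore not read as a missing message. Of the markers sorted against, Cd34 had 2 to 8 counts per KO library and 2 to 6 per WT library, while Flt3 had 103 to 198 counts per KO library and 88 to 318 per WT library. Cd48, a marker of more mature progenitors that the labelled sort does not name, had 469 to 1027 counts per KO library and 71 to 677 per WT library.

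Every tested member had a lower fitted level in KO with all libraries (Jund's sign turned without WT library 1), but 0 of the 7 passed edgeR's quasi-likelihood test at an adjusted p under 0.05, where 0.0098% of all 10204 tested genes passed. Fos, Fosb and Junb had an unadjusted p under 0.05, 3 of 7 members, against 4.65% of all tested genes in that direction. No member was higher in KO by that measure (0 of 7), against 2.63% of all tested genes. Fos, Fosb and Junb were also lower in every KO library than in every WT library, which held for 6.85% of all tested genes, while 0 members and 7.52% of all tested genes were higher in every KO library. Their fitted levels in KO were 46.7%, 47.4% and 39.1% of those in WT. The median log2 fold change of the 7 was -1.10, beside -0.05 for all tested genes, of which 52.8% were negative. The members were chosen with earlier results of these data known. WT library 1 was the highest for every tested member but Atf3, so the members do not count as separate cases. Limma-voom called 0 members and 0.0098% of all tested genes (1 gene). DESeq2 called 2 members, Fos (adjusted p = 0.0166) and Fosb (adjusted p = 0.0463), both lower in KO, where 1.03% of its 9517 genes were called lower, 0.231% higher and 1.26% in either direction.

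**Figure D1:**
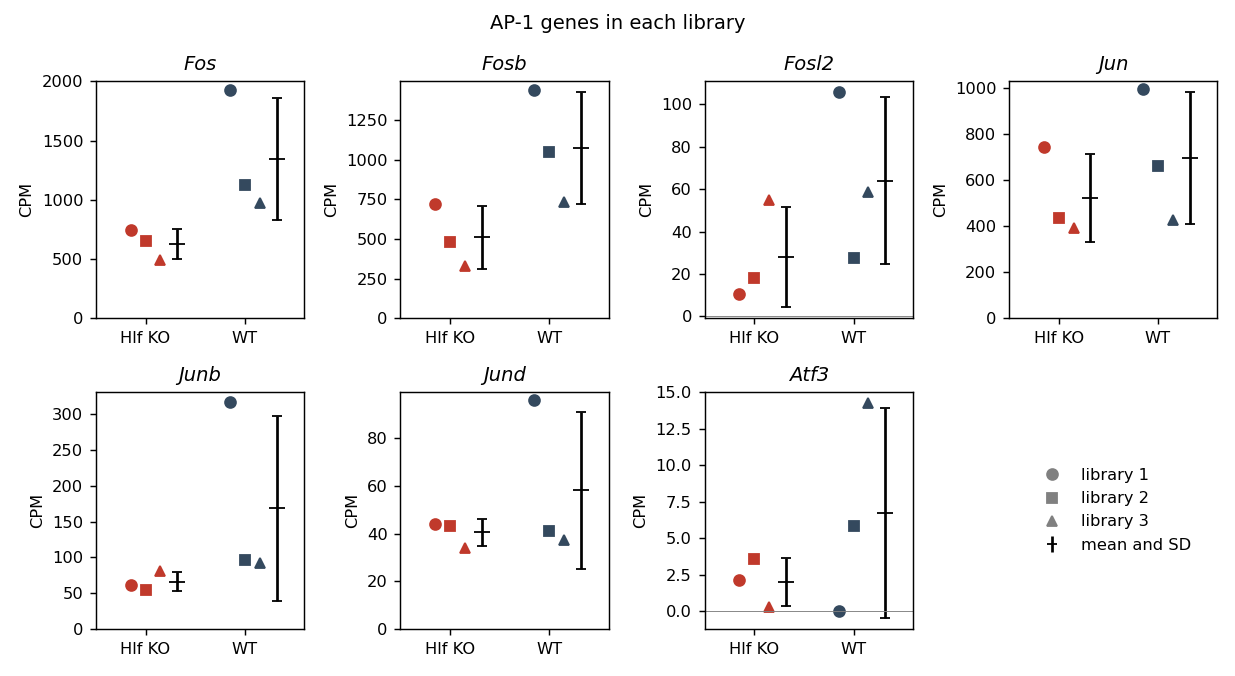
Level of each tested AP-1 gene in CPM (linear axes that include 0). Points are single libraries of Hlf KO (red) and WT (dark blue), and bars give mean ± SD (n = 3 each); KO and WT do not overlap for Fos, Fosb and Junb, and WT library 1 is the highest for every gene but Atf3.

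Fos, the founding member of its family, had 741, 650.0 and 487 CPM in KO libraries 1 to 3, against 1930.3, 1120.5 and 974 CPM in WT libraries 1 to 3. The highest KO library lay below the lowest WT library, and WT library 1 stood far above the rest. The means were 626 ± 128 CPM in KO and 1341.5 ± 515 CPM in WT (SD, n = 3 each). This gave a log2 fold change of -1.10 (SE 0.27, edgeR adjusted p = 0.429), and -0.73 without WT library 1. Among tested genes Fos ranked 155th to 250th by CPM in KO libraries and 67th to 119th in WT libraries.

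Fosb, a close relative that also forms transcriptionally active dimers with Jun proteins, had 719.7, 481 and 329.8 CPM in KO, against 1441.7, 1049.8 and 736 CPM in WT. The groups did not overlap, though KO library 1 and WT library 3 were nearly level. This gave a log2 fold change of -1.08 (SE 0.31, edgeR adjusted p = 0.466), and of between -1.40 and -0.79 with any library left out. Fos, Fosb and Junb were lower in every KO library under both other scalings as well, where 7.09% (RLE) and 5.97% (upper-quartile) of all genes were. The same held after thinning all libraries to equal depth, where 6.94% of all genes were.

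The other Fos relatives, Fosl1 (Fra-1) and Fosl2 (Fra-2), differ from Fos and Fosb in lacking a strong activation domain. Fosl2 had 10.7, 18.1 and 54.9 CPM in KO, against 106, 27.6 and 58.6 CPM in WT. The groups overlapped, since KO library 3 lay above WT library 2. The fitted log2 fold change of Fosl2 stood at -1.20 (SE 0.68, edgeR adjusted p = 0.717). It was -2.14 without KO library 3 and -0.61 without WT library 1. Fosl1 had 0 counts in all 6 libraries and was not tested. A count of 0 allows up to 0.26 to 0.283 CPM per KO library and 0.312 to 0.382 CPM per WT library (3 counts, counting error only).

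Jun, the usual partner of Fos and able to pair with itself, had 742, 435 and 390.5 CPM in KO, against 996, 661 and 425 CPM in WT. The groups overlapped widely, and KO library 1 lay above both WT libraries 2 and 3. The means were 523 ± 192 CPM in KO and 694 ± 287 CPM in WT (SD, n = 3 each), a log2 fold change of -0.41 (SE 0.32, edgeR adjusted p = 0.799). It was -0.04 without WT library 1, -0.23 without KO library 3, -0.66 without WT library 3 and -0.74 without KO library 1.

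Junb, a weaker activator that can oppose Jun, had 61.7, 55.1 and 80.9 CPM in KO, against 318, 96.4 and 91.5 CPM in WT. The groups did not overlap, and WT library 1 stood far above the other libraries. Its log2 fold change stood at -1.35 (SE 0.47, edgeR adjusted p = 0.563) with all libraries and -0.50 without that library. Jund, a Jun protein that in many cells is present without stimulation, had 44.1, 43.1 and 34.1 CPM in KO, against 95.9, 41.1 and 37.3 CPM in WT. All KO values lay close to WT libraries 2 and 3. Jund stood at a log2 fold change of -0.52 (SE 0.49, edgeR adjusted p = 0.835), and its sign turned, to 0.059, without WT library 1.

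Atf3 was near the limit of detection. It had 23, 38 and 3 counts in KO, against 0, 56 and 129 counts in WT, so the widest spread lay within the WT group. Atf3 stood at a log2 fold change of -1.75 (SE 1.74, edgeR adjusted p = 0.848), and at -0.56 without WT library 3.

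**Figure D2:**
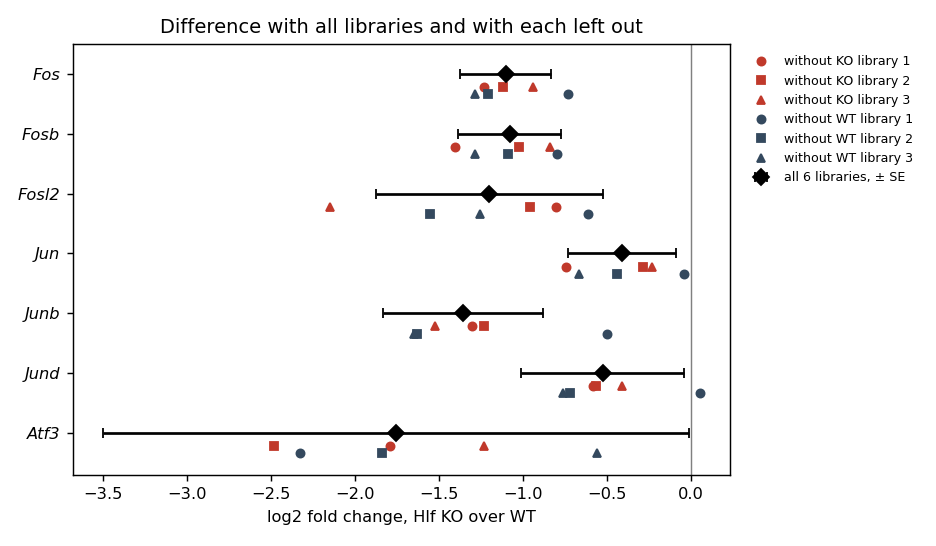
Log2 fold change of each tested AP-1 gene, Hlf KO over WT, with all 6 libraries (black diamond, ± SE) and with each library left out (coloured points). Leaving out WT library 1 moves Junb to -0.50, Jun to -0.04 and Jund to 0.059, while Fos and Fosb stay at -0.73 and -0.79.

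Leaving out WT library 1 moved Junb, Jun and Jund nearer to 0, and Fos and Fosb as well. With any 1 library left out, Fos ranged from -1.28 to -0.73 and Junb from -1.65 to -0.50, and 0 members passed edgeR's test in any of the 6 fits. Fos, Fosb and Junb stayed lower in every remaining KO library in each of these fits, where 9.83% to 13.4% of all genes did so. Depth also moved with genotype, and in libraries thinned to equal totals the values of Fos, Fosb and Junb were -1.10, -1.08 and -1.36. Without both libraries rich in Xist they were -1.13, -1.05 and -1.82, and Fosl2 was at -2.21.

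Per kilobase of transcript, Fos was the most abundant member in every library. Transcript lengths were those of the matching GENCODE transcripts, from 1668 bases for Jund to 6537 for Fosl2. On this scale Fos averaged 297 ± 60.9 CPM per kilobase in KO and 636 ± 244 in WT (SD, n = 3 each). Jun averaged 164 ± 60.1 in KO and 218 ± 89.9 in WT, and Fosb 135 ± 52 in KO and 284.5 ± 93.5 in WT. These neighbours in the order lay within each other's spread as means, but within libraries the order of Fosb and Jun per kilobase was uniform and opposite between genotypes. Fosb was below Jun in each KO library, at 190.3, 127 and 87.2 against 233, 136.5 and 122 CPM per kilobase. It was above Jun in each WT library, at 381, 278 and 195 against 312, 207 and 133. The order in KO rests on the lengths used, since in CPM Fosb was above Jun in KO library 2, at 481 against 435. Junb followed at 36.4 ± 7.40 CPM per kilobase in KO and 93.2 ± 71.4 in WT, then Jund at 24.2 ± 3.30 and 34.8 ± 19.7, and these neighbours overlapped in WT. Fosl2, at 4.27 ± 3.62 in KO and 9.80 ± 6.04 in WT, and Atf3, at 0.999 ± 0.838 and 3.38 ± 3.62, overlapped each other. Within every library, though, Junb lay above Jund and Fosl2 above Atf3 on this scale.

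Ratios of counts within a library do not depend on how libraries are scaled, and they compare the members directly. The 6 members with counts in every library gave 15 pairs. For 3 of the 15 pairs the genotypes did not overlap. Of all pairs of genes with a count in every library, 14.2% did not overlap in either direction. All 3 were ratios of Fos or Fosb to Jun or Jund, and in that order they were lower in KO. They share genes, so they are not separate results. The ratio of Fos to Jun was 0.998, 1.49 and 1.25 in KO libraries 1 to 3, against 1.94, 1.70 and 2.29 in WT. That of Fosb to Jun was 0.969, 1.10 and 0.845 in KO, against 1.45, 1.59 and 1.73 in WT. The highest KO ratio lay below the lowest WT ratio in both cases. Fos to Jund was 14.3 to 16.8 in KO and 20.1 to 27.3 in WT. A two-sided exact permutation test of each log2 ratio gave p = 0.1, the smallest that 3 against 3 libraries allow, and 0.5 when adjusted over the 15 pairs, so none of these differences passed. The pairs to describe were picked after their values were seen.

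**Figure D3:**
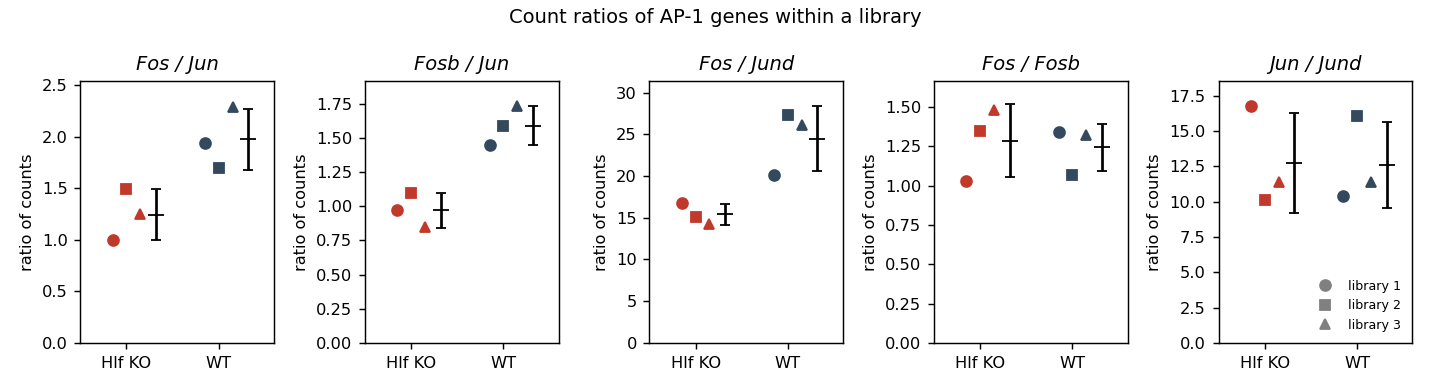
Ratio of raw counts of AP-1 genes within each library (linear axes from 0), for Hlf KO (red) and WT (dark blue), with mean ± SD (n = 3 each). Fos to Jun is 0.998 to 1.49 in KO and 1.70 to 2.29 in WT, while Fos to Fosb and Jun to Jund overlap between genotypes.

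The ratio of Fos to Fosb overlapped, at 1.29 ± 0.231 in KO and 1.24 ± 0.152 in WT (SD, n = 3 each). Jun to Jund overlapped as well, at 12.8 ± 3.57 in KO and 12.6 ± 3.05 in WT. Set against all 9183 other genes with a count in every library, Fos had a lower ratio in every KO library for 41.4% of them, Fosb for 33.2% and Junb for 32.1%. The same held for Jun with 5.36%, Jund with 9.57% and Fosl2 with 10.6% of the other genes. Of all gene pairs, 14.2% did not overlap, counting both directions together. Fos, Fosb and Junb were already lower in every KO library in CPM, so their larger shares are not a separate result. Within the Fos family, Fos held 68.6 ± 3.40% of the summed level per kilobase in KO and 68.2 ± 2.44% in WT. Within the Jun family, Junb held 17.1 ± 6.21% in KO and 25.1 ± 6.78% in WT, which overlapped. Summed per kilobase, the Fos family stood at 1.85, 2.27 and 1.74 times the Jun family in KO, against 2.41, 2.85 and 3.23 times in WT. These shares and sums are given as a description. All 8 members held 0.243%, 0.176% and 0.133% of all counts in KO and 0.460%, 0.292% and 0.240% in WT.

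The genes whose profile over the 6 libraries was most like that of Fos were Hs1bp3, Gimap5, Per3 and Cdk5rap3. The measure was the root mean square difference of log2 CPM after centring each gene on its own mean, over the 6611 tested genes whose mean log2 CPM reached 4. It was 0.068, 0.14, 0.149 and 0.16 log2 units for these genes. Fosb came 10th by this measure, at 0.19, while Jund came 213th, Jun 283rd, Junb 427th and Fosl2 4761st. Per3, a clock repressor, had 59.6, 42.5 and 33 CPM in KO, against 123, 88.5 and 79.8 CPM in WT. It was picked for its likeness to Fos, so its lower values in KO follow from that choice. The genes most like Jun were Cep162, Trim11, Klf13 and Rel, at 0.0974 to 0.123 log2 units, and Rel encodes an NF-kappa-B subunit. Fos came 528th among the genes most like Jun, at 0.396.

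The proteins that pair with AP-1 factors, that induce them and that limit them were counted next. Across 6 lists, 0 of the tested genes passed edgeR's test in either direction, where 0.0098% of all tested genes did. At an unadjusted p under 0.05, 1 upstream signalling gene and 2 target genes were higher in KO, against 2.63% of all tested genes. In the other direction there were 1 upstream factor, 2 brakes, 3 other immediate early genes and 0 bZIP partners, against 4.65% of all tested genes. DESeq2 called Zfp36 and Egr1, both lower in KO, and limma-voom called 0, where it called 1 gene of all those tested. Of 15 bZIP partners 9 were tested, 2 with positive and 7 with negative log2 fold changes (median -0.36). Nfe2l2, the antioxidant regulator, had 249, 248 and 252 CPM in KO, against 271, 367 and 285 CPM in WT. Its log2 fold change stood at -0.30 (SE 0.22), and at -0.15 without WT library 2. Maff, a small Maf protein, stood at -1.61 (SE 1.05) and its groups overlapped. It was at -0.76 without WT library 1 and -1.05 without KO library 2.

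Of 22 signalling genes upstream of AP-1, most of them kinases, 16 were tested, 9 positive and 7 negative (median 0.07). Mapk11, a p38 kinase, had 11, 0 and 0 counts in KO, against 25, 0 and 142 counts in WT, and no fold is given. Of 11 factors that bind Fos and Jun promoters or their coactivators, 10 were tested, 2 positive and 8 negative (median -0.58). Elk1, a partner of serum response factor, had 9.61, 10.1 and 4.59 CPM in KO, against 26.7, 22.8 and 23.2 CPM in WT. Elk1 stood at -1.58 (SE 0.74) with no overlap. Its relative Elk3 stood at -1.53 (SE 0.69) and the coactivator Ep300 at -0.51 (SE 0.24), both with overlap. Without WT library 1 they were at -0.73 and -0.26, and Elk3 was at -2.55 without KO library 2.

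Of 19 brakes on AP-1, 17 were tested, 4 positive and 13 negative (median -0.22). Zfp36, which promotes decay of AU-rich messages such as that of Fos, had 654, 543 and 780.5 CPM in KO, against 1797.5, 1486 and 1040.3 CPM in WT. The groups did not overlap, and Zfp36 stood at -1.13 (SE 0.24, edgeR adjusted p = 0.371, DESeq2 adjusted p = 0.00307). Dusp1, a phosphatase of JNK and p38, had 495, 343.5 and 256 CPM in KO, against 625, 674 and 519 CPM in WT. It stood at -0.73 (SE 0.26, edgeR adjusted p = 0.563), and Dusp4 at -1.70 (SE 0.88), both with no overlap.

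Of 21 textbook AP-1 target genes, 12 were tested, 6 positive and 6 negative (median 0.14). Tgfb1, which encodes a growth-inhibiting cytokine, had 161, 191 and 184 CPM in KO, against 75.2, 88.5 and 98.4 CPM in WT. Every KO library was the higher, opposite to Fos, and Tgfb1 stood at 1.03 (SE 0.28, edgeR adjusted p = 0.466). Icam1, an adhesion molecule, had 12.3, 17 and 13.3 CPM in KO, against 32.1, 36.4 and 27.8 CPM in WT, a log2 fold change of -1.17 (SE 0.59). Plau, the urokinase protease, had 18, 29 and 34 counts in KO, against 0, 0 and 1 count in WT, and no fold is given.

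**Figure D4:**
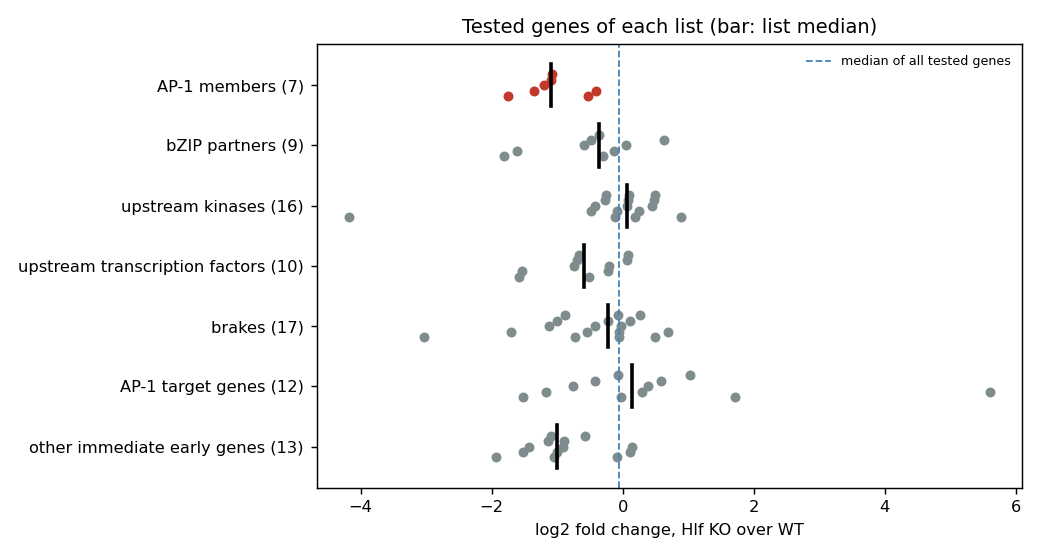
Log2 fold change, Hlf KO over WT, of the tested genes of the AP-1 family (red) and of each related list (grey), with the number tested in brackets. Black bars mark list medians and the dashed line the median of all tested genes; the AP-1 median is -1.10, that of the other immediate early genes -0.996 and that of AP-1 target genes 0.14.

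Other immediate early genes, many of which also rise when tissue is dissociated, were set beside the members. Of 16, 13 were tested, 2 positive and 11 negative (median -0.996). Egr1, a growth-induced zinc finger factor, had 1109, 927 and 1877 CPM in KO, against 3172.5, 3179.5 and 1724 CPM in WT. The groups overlapped, because KO library 3 lay above WT library 3, and Egr1 stood at -1.05 (SE 0.30, edgeR adjusted p = 0.466). Klf6 stood at -1.09 (SE 0.32) with no overlap and Klf4 at -1.52 (SE 0.59) with overlap, or -0.93 without WT library 2, and Egr1 was at -1.64 without both libraries rich in Xist. The part of cell handling in the values of Fos, Fosb and Junb was not tested.

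Some markers of other cells also differed between the genotypes in these sorted cells, though none passed edgeR's test. Of all tested genes, 6.85% were lower and 7.52% higher in every KO library. Of 8 B lymphoid markers 4 were tested, all negative, and the 8 summed to 121 to 289 CPM in KO and 643 to 5217.5 CPM in WT. Most of that sum was Jchain, the joining chain of antibodies, with 235.5, 169 and 92.9 CPM in KO, against 1949, 562 and 5074 CPM in WT. Cd79b, a subunit of the B cell receptor, overlapped between the genotypes, at 27.5 to 52.5 CPM in KO and 18.2 to 59.1 CPM in WT. Of 6 T and NK markers 5 were tested, 3 positive and 2 negative, and Cd8a was at 0. The 6 summed to 331 to 625 CPM in KO and 129.8 to 238 CPM in WT, most of it Nkg7, a granule protein of cytotoxic cells (254 to 463 CPM in KO and 71.4 to 156 CPM in WT), and Ccl5, a chemokine (44.4 to 131 and 11.9 to 16.03 CPM). The T cell genes did not share that direction. Cd4 was lower in every KO library, at 0.549, 4.80 and 9.70 CPM, against 39.7, 16.5 and 11.9 CPM in WT, and Cd3e overlapped, at 19.2 to 21.2 CPM in KO and 2.77 to 83.5 CPM in WT. The 5 megakaryocyte markers, all positive, summed to 710.4 to 918 CPM in KO and 309 to 503 CPM in WT, while Vwf and Itga2b each overlapped between the genotypes. Of 8 granulocyte-monocyte markers 7 were tested, all negative, with sums of 74.7 to 215 CPM in KO and 137 to 2666 CPM in WT, where WT library 3 was the high one. These sums overlapped, since WT library 2 lay below KO library 2. S100a9 was at 0 counts. Without WT library 3 the values of Fos, Fosb and Junb were -1.28, -1.29 and -1.65. The sums of erythroid markers (192 to 240.5 CPM in KO, 173 to 203 CPM in WT, Hbb-b1 at 0), macrophage markers (9.88 to 47.4 and 20.8 to 68.3) and endothelial and stromal markers (34.3 to 81.8 and 51.9 to 188) overlapped. The part of these cells in the AP-1 values was not tested. In bulk RNA, fewer cells with a message and less message per cell cannot be told apart.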

How the data were processed

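RNA from 3000 sorted cells per library was sequenced from TruSeq libraries, per the labels' protocols. The files deposited by the authors hold raw whole-number counts for each RefSeq transcript; TopHat and mouse build mm9 were used, per the submitters' processing notes. Counting tool, annotation release, strand use and treatment of shared reads: not given in the sources used here. Of 30858 transcripts, 30363 were named from RefSeq's GRCm38.p6 gene table, 179 from GENCODE, and 316 kept their accession, and counts were summed to 23574 genes. The builds differ: the counts rest on mm9, while the promoter windows and the coordinates printed with them are RefSeq's on GRCm38.p6. Genes with 2 listed transcripts had a median of 3 counts over all libraries, against 79 with 1, so a low count of such a gene is not read as low expression.

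KO was compared with WT by edgeR 4.0.16 in R 4.3.3: normalization by TMM, a filterByExpr filter (at least 10 counts, total of at least 15), the robust quasi-likelihood F test over all 6 libraries, and Benjamini-Hochberg adjustment over 10204 genes, called at 0.05. SE was taken from the F statistic. Log2 CPM used a prior count of 2. DESeq2 1.42.0 and limma-voom (limma 3.58.1), other scalings and filters, equal depth, single-transcript genes, a replicate block and leaving out libraries were alternatives. The scripts were tested on simulated data. Members, lists and tests were chosen with earlier results of these data known. Text names all members, Hlf, the 3 genes of smallest p per list, and the 4 genes most like Fos and like Jun; some items this rule names are not reported here. Counts of 0 allow up to 3 counts, for counting error only.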

Additional observations from a re-analysis of the deposited data

How the results depend on the processing

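Each value was recomputed under 16 alternatives. The number of members called was 0 in all but DESeq2, which called 2, Fos (-1.12) and Fosb (-1.10). Over all genes, where edgeR called 1, DESeq2 called 120, edgeR without a filter on low counts 9, and the fits with 1 library left out 1 to 3. The brake Zfp36 passed under DESeq2 (1 member) and without the filter (1 member), and Egr1 was the 1 other immediate early gene called by DESeq2. No member other than Jund turned sign under any alternative, and Jund ranged from -0.76 to 0.059 with 1 library left out. Atf3 was -0.04 without both libraries rich in Xist, -0.57 under limma-voom, and was not tested under the stricter filter; the cause was not tested. With the replicate block edgeR called 2 genes in all, 0 of them members, with Fos at -1.06 and Fosb at -1.10. Same-numbered libraries of the genotypes did not deviate together over all tested genes (r = -0.01, -0.0216 and 0.0204). This does not settle whether the numbers mark pairs. Fos, Fosb, Jun and Jund each fell from library 1 to 3 in both genotypes, while Fosl2, Junb and Atf3 did not. The block lowered the SE of Fos from 0.27 to 0.22, of Fosb from 0.31 to 0.21 and of Jun from 0.32 to 0.22. That of Junb fell to 0.45, and those of Fosl2, Jund and Atf3 rose. Hlf stayed called throughout. Having 3 libraries per genotype limits what the tests can detect.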
